A study of Mus musculus with 2 samples.

Results

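The loci of 10 mouse genes that regulate the G1 phase of the cell cycle were described in a reporter screen of T cells. The labels name the cells as activated naive CD4-positive, alpha-beta T cells. The genes are the D cyclins Ccnd1, Ccnd2 and Ccnd3, the kinases Cdk4 and Cdk6, the E cyclins Ccne1 and Ccne2, and the inhibitors Cdkn1a (p21), Cdkn1b (p27) and Cdkn2c (p18). A listed element was given to the protein-coding gene whose transcription start site (TSS) lay nearest to the element's midpoint, up to 100000 bp away. This gave 20 of the 10531 listed elements, at 8 of the 10 genes, and Ccnd1 and Cdkn1b had none.

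The assay was STARR-seq, short for self-transcribing active regulatory region sequencing. In it, DNA fragments are cloned into the transcribed part of a reporter plasmid, so that the amount of each fragment's own RNA reads out its regulatory activity. Cells of the C57BL/6NJ strain were cultured for 3 days with antibodies to CD3e (0.25 µg/mL, legible on 1 of 2 labels), CD28 (1 µg/mL), interferon-gamma (2 µg/mL) and interleukin-4, and with interleukin-2 (10 ng/mL), and both biological replicates name the same donor record. The plasmids were carried as episomes after transient transfection, so each fragment was measured outside its chromosome, and the labels give no genetic change to the cells. There was 1 group and no second condition, and the authors deposited 1 list for both replicates together. Depth and values per replicate are unknown, so no element below has an error between replicates, and the labelled cell type could not be checked against marker genes because the list holds no gene expression.

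Each listed element carries the authors' effect, a number whose scale, log base and direction of contrast are not given in the sources used here. Above 0 it is called positive and likely means that a fragment gave more RNA than its share of the plasmid library, which no source used here states. The largest adjusted p-value in the authors' deposited table was 0.01, and the list held 9.18% of the tests its adjusted p-values imply, so every value below comes from an element that had already passed that threshold. Among all listed elements, 51.3% were positive, with a median effect of 1.36, and the median of the negative ones was -1.44. All effects are the authors' values for both replicates together.

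D cyclins are made when a resting cell receives growth signals, and they bind Cdk4 and Cdk6. The active kinases phosphorylate the retinoblastoma protein, which releases E2F factors, and these raise the E cyclins, which drive Cdk2 and entry into S phase. Cdkn2c blocks Cdk4 and Cdk6, whereas Cdkn1a and Cdkn1b act on cyclin-bound kinases more broadly, and Cdkn1a is a long-known target of the transcription factor p53. Activated T cells leave quiescence and divide fast, and this pathway is known to control that step.

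The sequences on which the descriptions below turn are printed here on the plus strand of GRCm38, the assembly called mm10, 5′ to 3′. The most upstream Cdkn1a start site and the gene's distal element are shown because each holds a pair of p53 decamers side by side. Each pair is in capitals and has 1 mismatch, and p53 binds such pairs. The first sequence also holds a single p53 decamer match, GGACTAGCTT, which is left in lower case.
Cdkn1a, chr17:29090851-29090978, ending 1 base before the TSS: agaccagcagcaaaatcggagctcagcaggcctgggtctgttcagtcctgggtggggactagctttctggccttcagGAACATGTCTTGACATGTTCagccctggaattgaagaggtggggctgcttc
Cdkn1a distal, chr17:29078965-29079085: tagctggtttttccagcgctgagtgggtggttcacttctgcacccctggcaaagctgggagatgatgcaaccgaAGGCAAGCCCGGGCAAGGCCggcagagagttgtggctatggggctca
The strongest element of the group, upstream of Ccne2, is shown by its last 300 bases, with a STAT and then an AP-1 match in capitals.
Ccne2 distal, chr4:11176276-11176575: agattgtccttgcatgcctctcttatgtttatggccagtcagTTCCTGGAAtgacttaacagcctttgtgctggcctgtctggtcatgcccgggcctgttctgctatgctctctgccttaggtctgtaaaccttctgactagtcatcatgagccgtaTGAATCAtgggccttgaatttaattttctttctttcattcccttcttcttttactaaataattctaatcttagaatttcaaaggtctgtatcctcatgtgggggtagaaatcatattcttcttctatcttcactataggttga
The next pair is shown because the second Ccne2 element is a near-copy of a stretch of the first, and the base that differs is in capitals.
Ccne2 distal, copied stretch, chr4:11176337-11176411: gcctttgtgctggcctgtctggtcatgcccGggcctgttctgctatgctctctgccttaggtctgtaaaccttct
Ccne2 second element, chr4:11184326-11184400: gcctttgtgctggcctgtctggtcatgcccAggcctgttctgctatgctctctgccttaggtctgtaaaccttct
The second strongest element, upstream of Ccne1, is shown whole because it holds a long tandem repeat, in capitals.
Ccne1 upstream, chr7:38124151-38124425: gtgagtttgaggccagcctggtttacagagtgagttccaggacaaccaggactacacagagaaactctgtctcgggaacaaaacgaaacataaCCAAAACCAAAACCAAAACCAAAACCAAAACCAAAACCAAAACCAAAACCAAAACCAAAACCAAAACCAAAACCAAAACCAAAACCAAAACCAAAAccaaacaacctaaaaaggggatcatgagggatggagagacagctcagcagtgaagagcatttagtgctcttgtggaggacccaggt
Parts of the strongest Cdk6 and Ccnd2 elements are shown with AP-1 and FOXO matches in capitals in the first, and interferon-response (ISRE) and FOXO matches in the second.
Cdk6 intronic, chr5:3434471-3434650: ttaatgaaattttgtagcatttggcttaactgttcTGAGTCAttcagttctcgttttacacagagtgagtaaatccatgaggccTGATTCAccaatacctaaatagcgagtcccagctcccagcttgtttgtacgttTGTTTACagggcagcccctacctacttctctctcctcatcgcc
Ccnd2 upstream, chr6:127245991-127246160: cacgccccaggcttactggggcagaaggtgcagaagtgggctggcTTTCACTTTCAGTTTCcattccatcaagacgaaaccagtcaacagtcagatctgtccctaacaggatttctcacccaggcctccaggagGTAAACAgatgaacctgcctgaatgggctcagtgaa
A part of the Ccne2 promoter element, the most negative of the group, shows E2F, SP/KLF and E-box matches in capitals. It also holds a FOXO match (TGTTTAC), which is left in lower case.
Ccne2 promoter, chr4:11191026-11191275: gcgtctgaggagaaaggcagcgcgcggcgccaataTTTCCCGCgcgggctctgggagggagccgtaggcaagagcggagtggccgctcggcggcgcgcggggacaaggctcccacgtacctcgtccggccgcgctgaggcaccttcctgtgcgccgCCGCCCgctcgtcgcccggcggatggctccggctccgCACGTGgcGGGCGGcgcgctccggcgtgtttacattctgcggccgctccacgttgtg

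Of the 20 elements, 14 were positive (70%) and 6 were negative. The positive ones ran from 0.72 to 3.99 with a median of 1.86, and the negative ones from -2.96 to -0.72 with a median of -1.49. All 6 negative elements lay at promoters, here meaning a midpoint within 1000 bp of a TSS of any gene type, as did 84.8% of all listed negative elements. All 11 elements away from promoters were positive: 6 were intergenic, 4 intronic and 1 exonic. Of all listed elements away from promoters, 84.7% were positive, so both shares were near those of the whole list.

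By gene, 8 of 10 had an element, against 31.2% of all 21911 protein-coding genes, and 5 of 10 had at least 3, against 2.69%. A positive element was found at 6 genes, Ccnd2, Ccnd3, Cdk6, Ccne1, Ccne2 and Cdkn1a, against 16.0% of all genes. A negative one was found at 4, Cdk4, Ccne1, Ccne2 and Cdkn2c, against 19.8%. The E cyclins Ccne1 and Ccne2 were the 2 genes with both signs, a pattern of 4.50% of all genes. The stretch of genome nearer to these 10 genes than to any other summed to 829154 bp, with 24.1 elements per Mb against 6.17 over all genes. These shares are descriptions of 10 chosen genes, and no test was made of them.

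**Figure D1:**
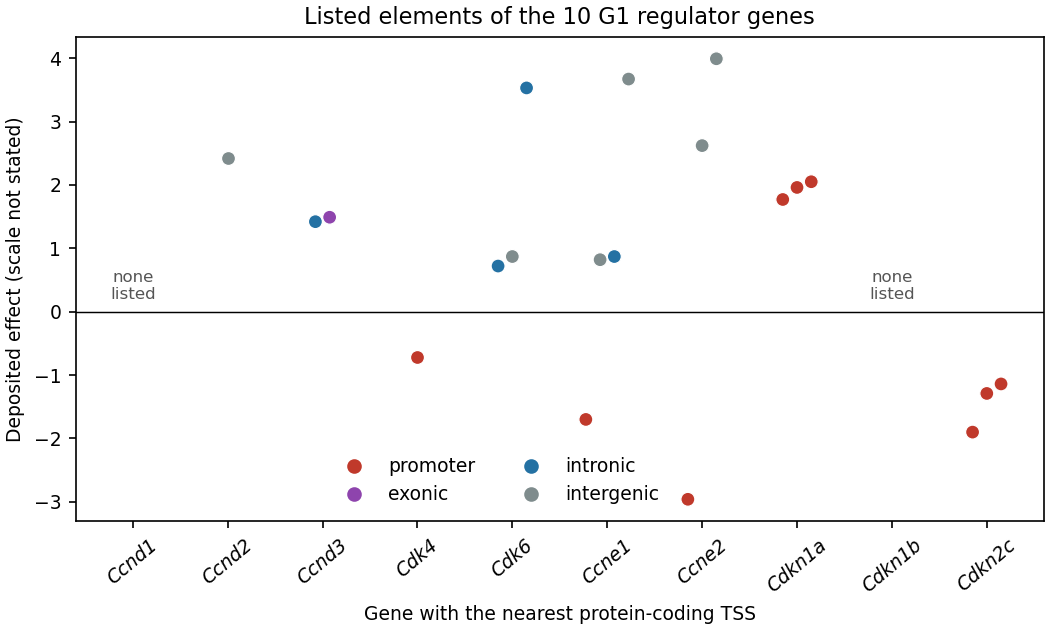
Deposited effect (vertical axis, scale not stated) of each of the 20 listed elements by nearest gene (horizontal axis); each point is 1 element, spread sideways for legibility, and the colour gives its class. All points below 0 are promoter elements, Cdkn1a alone has promoter elements above 0, and Ccnd1 and Cdkn1b have no listed element.

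The D cyclins had 3 elements, all positive and none at their own start sites. Ccnd2 (ENSMUSG00000000184, chromosome 6, 127125162 to 127151060, minus strand), the D cyclin long tied to lymphocyte growth, had 1 element at chr6:127245751-127246300. Its effect was 2.42, rank 892 of the 5407 positive effects, and its adjusted p-value in the authors' deposited table was 1.10e-10. The element was intergenic and lay 94965 bp upstream of Ccnd2, near the edge of the distance limit, whereas the TSS of the gene Gm43635 was 8619 bp away. It held 2 overlapping ISRE matches, the sequence read by interferon-regulatory factors, and 1 match each to NFAT and FOXO.

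Ccnd3 (ENSMUSG00000034165, chromosome 17, 47505051 to 47599691, plus strand), the D cyclin needed for lymphocyte expansion, had 2 elements of similar effect. The first, at chr17:47507951-47508525, lay in a Ccnd3 intron 3089 bp downstream of the nearest TSS with an effect of 1.42, and held 1 ISRE, 1 RUNX and 2 SP/KLF matches. The other, at chr17:47600676-47601100, had an effect of 1.49 and lay past the end of Ccnd3, with all of its 425 bp in an untranslated exon of the neighbouring gene Bysl. It held 2 NFAT matches. Both sat near the middle of the positive effects, at ranks 2504 and 2340 of 5407.

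Ccnd1 (ENSMUSG00000070348, chromosome 7, 144929931 to 144939869, minus strand), the D cyclin best known from epithelial and other non-lymphoid cells, had no listed element. Nothing on the list lay within 100000 bp of its TSS, although 112345 bp of genome were nearest to it. The closest listed element was 163619 bp away at chr7:144775951-144776550, had an effect of -1.77 and was nearest to Ano1. Regions that were tested and not listed were not analysed here, so an empty locus does not show that the locus was inactive.

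The kinases differed in where their elements lay. Cdk4 (ENSMUSG00000006728, chromosome 10, 127063534 to 127067920, plus strand), a catalytic partner of the D cyclins, had 1 element at its promoter, chr10:127063201-127063900, with its midpoint 16 bp past the TSS. Its effect was -0.72, rank 5090 of the 5124 negative effects counted from the most negative, and the authors' deposited table gives an adjusted p-value of 0.00524. It held 4 SP/KLF matches and 4 matches to the E-box, the sequence read by Myc, and 1 match each to RUNX and TCF/LEF. Only 5074 bp of genome were nearest to Cdk4, and 4 other listed elements within the distance limit were nearer to other genes.

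Cdk6 (ENSMUSG00000040274, chromosome 5, 3343893 to 3531008, plus strand), the other D-cyclin kinase, had 3 positive elements. They had effects of 0.87 at chr5:3342176-3342475, 1568 bp upstream of the TSS, 0.72 at chr5:3355651-3356425 and 3.53 at chr5:3434201-3434825, the last 2 being intronic at 11726 bp and 90201 bp past the TSS. The first and second were among the weakest listed positive elements, at ranks 4596 and 5250 of 5407, and the third was among the strongest, at rank 290. In the authors' deposited table the adjusted p-value of the third was 3.35e-08, and those of the first and second were 0.00278 and 0.00879.

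The strong Cdk6 element held 2 AP-1, 2 NFAT and 1 FOXO match and 1 p53 decamer. A sequence at least 95% identical over at least 90% of it was found at 3 other places in the genome: chr6:3289064-3289684 at 97.6%, chr15:3129110-3129730 at 95.5% and chr7:3059844-3060464 at 95%. None of these copies overlapped a listed element. How reads that match several copies were placed is not given in the sources used here, so its effect cannot be tied to the Cdk6 copy alone. With elements that have such copies left out, Cdk6 kept its 2 weak elements and no strong one.

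Past the distance limit, up to 197130 bp away, lay 5 more elements nearest to Cdk6, all intergenic, upstream and positive. Their effects were 1.65 at 113605 bp, 1.45 at 119518 bp, 1.11 at 123918 bp, 2.68 at 191580 bp and 2.42 at 197130 bp. Those at 1.45 and 2.42 each had 2 near-copies in the genome, at up to 95.8% and 98.7% identity. All 5 entered no count above. Just inside it lay the Ccnd2 element at 94965 bp and the intronic Cdk6 element at 90201 bp.

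The E cyclins held 7 elements, with the 2 strongest positive effects and the most negative effect of all 20. Ccne2 (ENSMUSG00000028212, chromosome 4, 11191354 to 11204779, plus strand), an activator of Cdk2 at the G1 to S transition, had 2 positive elements upstream and a negative one at its promoter. The distal one, at chr4:11176201-11176575 and 14966 bp upstream, had an effect of 3.99, rank 178 of 5407, and an adjusted p-value of 2.21e-09 in the authors' deposited table. It held 1 AP-1 match, 1 STAT match and 1 p53 decamer. The second, at chr4:11184326-11184400 and 6991 bp upstream, was only 75 bp wide and had an effect of 2.62 at rank 717.

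These 2 Ccne2 elements share sequence. The 75 bp of the second matched a stretch of the first in 74 bases, and the one substitution was G31A, counted from 1 at the first base of the stretch, with the base of the distal element first. The match was part of a local duplication of 587 aligned bp at 95.7% identity, between chr4:11175889-11176469 and chr4:11183874-11184455. Of the 375 bp of the distal element, 71.7% lay in that duplication. The AP-1 and the STAT match occur once in each copy of the duplication, but in the second copy they fall outside the 75 listed bases, which hold no match to any motif searched. The 2 elements are therefore not independent measurements of different sequences.

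At the Ccne2 promoter, chr4:11190426-11191800, the effect was -2.96, rank 166 of the 5124 negative effects, with an adjusted p-value of 1.05e-08 in the authors' deposited table. The element was 1375 bp wide with a GC content of 75.2%, the highest of the 20. It held 9 SP/KLF, 2 E-box and 1 E2F match, the last being the sequence read by the factors that retinoblastoma protein holds in check. It also held 1 match each to FOXO, RUNX, NRF1 and NF-kappaB. Thus the 3.99 and the -2.96, the extremes of the 20 elements, belonged to the same gene.

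Ccne1 (ENSMUSG00000002068, chromosome 7, 38097984 to 38107534, minus strand), the other Cdk2 activator, had 4 elements, the most of the 10 genes. Its promoter element at chr7:38107376-38108575 had an effect of -1.70 and held 9 SP/KLF matches, 1 ETS match and 1 p53 decamer. Of its 3 positive elements, 2 lay past the 3′ end of the gene with low effects: 0.82 at chr7:38088551-38088750 and 0.87 at chr7:38070701-38071575, 18884 bp and 36396 bp downstream of the TSS. Each held 1 ISRE match, and the more distant one, in an intron of the gene Gm30771, also held 2 AP-1 and 1 RUNX match.

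The remaining Ccne1 element, at chr7:38124151-38124425 and 16754 bp upstream, had an effect of 3.67, rank 252 of 5407, with an adjusted p-value of 5.58e-06 in the authors' deposited table. Repeats masked in the genome made up 91.3% of it, the only one of the 20 above 50%. It held 16 tandem copies of CCAAAA, together 96 bp or 34.9% of its length, and no match to any motif searched. No other place in the genome matched it over 90% of its length at 95% identity. However, 87 bp of it were 80.5% identical to part of the Ccnd3 element in the Bysl exon. Masked repeats made up 20.7% of that Ccnd3 element, and whether the shared bases are a common repeat was not tested. Nor was it tested whether the tandem repeat bears on the effect of the Ccne1 element.

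**Figure D2:**
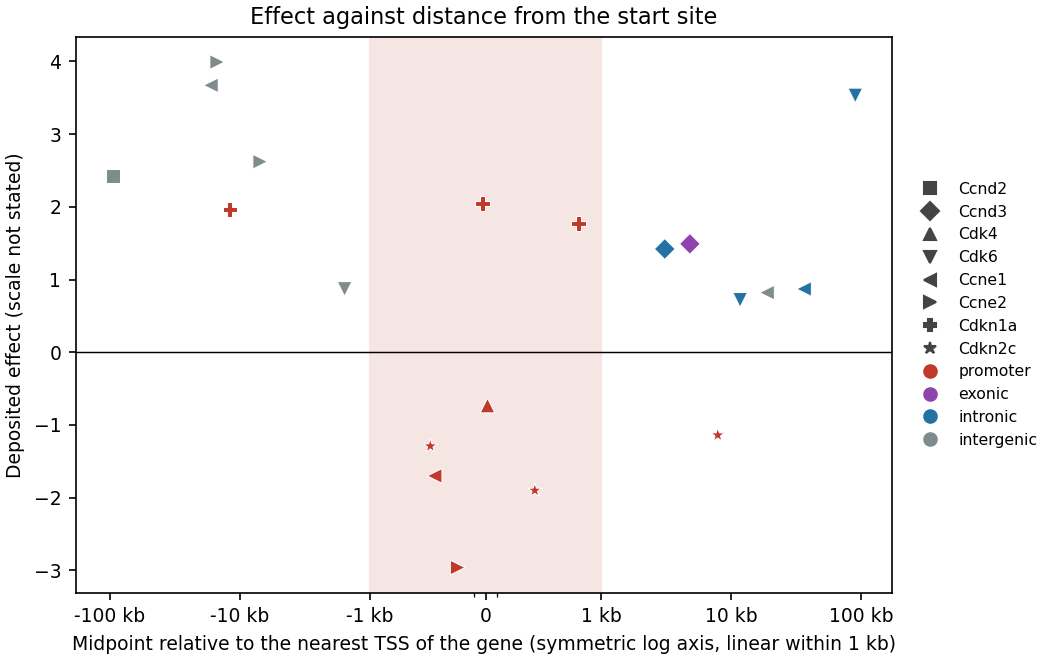
Deposited effect (vertical axis, scale not stated) against the signed distance of the element's midpoint from the nearest TSS of its gene (horizontal axis, in kb on a symmetric log scale that is linear in the band, upstream to the left); each point is 1 of the 20 elements and the shaded band marks 1000 bp either side of the TSS. The points in the band are negative except those of Cdkn1a, and the 3 effects above 3 lie 14966 bp or more from the TSS.

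The inhibitors had 6 elements that divided by gene: 3 positive at Cdkn1a and 3 negative at Cdkn2c, all in the promoter class. Cdkn1a (ENSMUSG00000023067, chromosome 17, 29090979 to 29100727, plus strand) is the p21 inhibitor induced by p53 after DNA damage. The element across its upstream TSS, chr17:29090851-29091050, had an effect of 2.05, rank 1289 of 5407. The one 807 bp past a downstream TSS, chr17:29094326-29094850, had an effect of 1.77; it holds no Cdkn1a TSS, and its midpoint lay 127 bp from the TSS of the gene AC167363.2. The third, at chr17:29078726-29079325 and 11954 bp upstream, had an effect of 1.96 and lay 154 bp from the TSS of Trp53cor1, the gene of a long noncoding RNA known as lincRNA-p21. The authors' deposited table gives adjusted p-values of 6.39e-07, 2.72e-08 and 2.90e-10 for them.

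A positive element within 1000 bp of its own TSS was found at 3.80% of all genes, and Cdkn1a was the only one among the 10. A negative one was found at 18.4% of all genes, and at 4 of the 10: Cdk4, Ccne1, Ccne2 and Cdkn2c. At the Cdkn1a TSSs themselves, the element that holds one was the one at 2.05. Among all 5423 listed promoter elements, 19.9% were positive, with a median of 1.29, and the 3 Cdkn1a values were all above that median.

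A pair of p53 decamers side by side, with at most 1 mismatch, was found in 2 of the 3 Cdkn1a elements, by a search chosen after the sequences had been seen. The pair in the element across the start site was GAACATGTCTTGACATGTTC at chr17:29090928-29090947, its centre 41 bp upstream of the TSS. The pair in the distal element was AGGCAAGCCCGGGCAAGGCC at chr17:29079039-29079058, and each had 1 mismatch. None of the other 18 elements held such a pair. In 200 bp windows centred on all listed elements, 218 of 5399 positive elements (4.04%) and 0 of 5122 negative ones held one. A match to letters does not show that p53 bound there, and p53 binding was not measured here.

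Cdkn2c (ENSMUSG00000028551, chromosome 4, 109660876 to 109667189, minus strand), which inhibits Cdk4 and Cdk6, had only negative elements. They had effects of -1.90 at chr4:109666276-109667250, -1.29 at chr4:109665476-109666225 and -1.14 at chr4:109656926-109658025. The first and second had midpoints within 1000 bp of the gene's own TSSs and were 50 bp apart, so they may be parts of 1 region. The second holds no TSS, and its midpoint lay 478 bp upstream of one. The third lay 7897 bp past the Cdkn2c TSS and 352 bp from the TSS of the gene 9630013D21Rik. All held SP/KLF matches, 6, 2 and 3 in that order, and the strongest also held 1 E2F and 1 EGR match. The element at -1.29 also held 1 NFAT match and 1 p53 decamer.

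Cdkn1b (ENSMUSG00000003031, chromosome 6, 134920401 to 134925513, plus strand), the p27 inhibitor that is high in resting T cells and falls on activation, had no element. Within the distance limit lay 2 listed elements that were nearer to other genes. One, at the promoter of Gpr19, chr6:134897501-134898650, had an effect of 0.91 and was 22326 bp from Cdkn1b. The other, in an exon of Apold1, chr6:134983451-134984275, had an effect of -0.95 and was 63350 bp away.

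Base composition divided the 20 elements much as the sign did. The 14 positive elements had a median GC content of 51.1% (42.1% to 67%) and 10.9 CpG per 1000 bases, and the 6 negative ones 66% (62.8% to 75.2%) and 83.1. Over all listed elements the medians were 47.7% for positive and 67.6% for negative GC content. Only 2 positive elements had a GC content above 60%, those at 1.77 downstream of a Cdkn1a start site (67%) and at 0.87 upstream of Cdk6 (62.7%). Among all listed elements within 2.5 points of their GC content, 5.11% and 20.4% were positive. The same share was 0.856% at the GC content of the Ccne2 promoter element and 94.3% at that of the strong Cdk6 element.

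**Figure D3:**
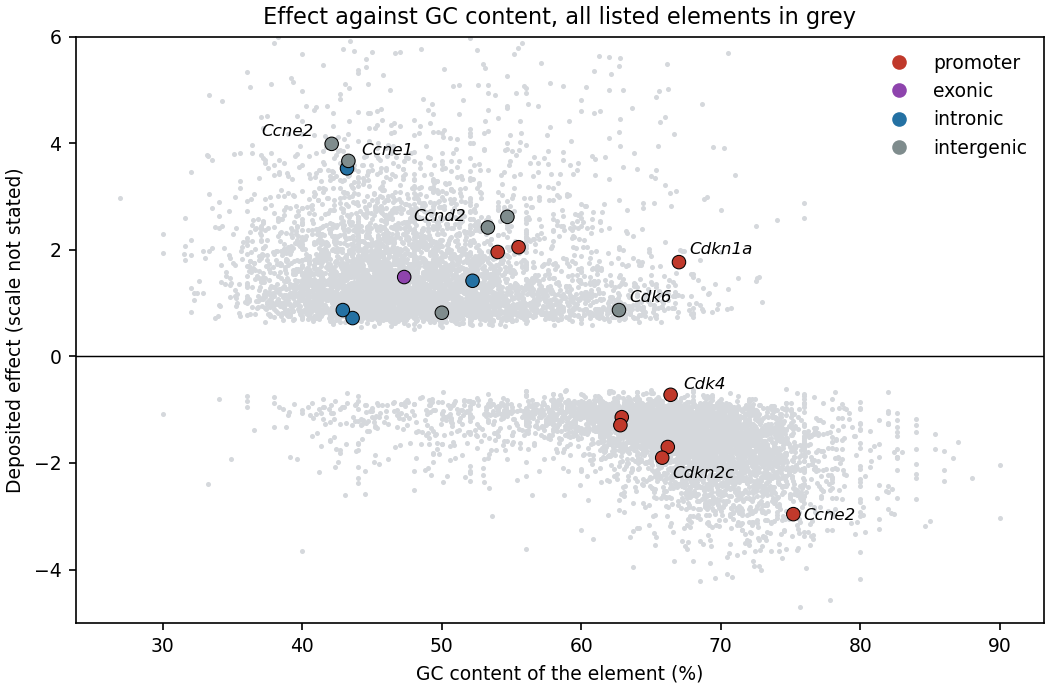
Deposited effect (vertical axis, scale not stated) against GC content (horizontal axis, percent) for the 20 elements, coloured by class, over all listed elements in grey; 24 grey points lie outside the axis limits. The 6 negative elements lie above 60% GC, and the positive elements at 1.77 (Cdkn1a) and 0.87 (Cdk6) lie there too.

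Matches to AP-1, ISRE and NFAT were more frequent in positive than in negative elements, and this was also so over the whole list. AP-1 (TGANTCA), bound by Fos and Jun proteins, was found in 5 of 14 positive and 0 of 6 negative elements, and ISRE (GAAA, any 2 bases, GAAA) in 4 of 14 and 0 of 6. One or both were found in 8 positive elements, at Ccnd2, Ccnd3, Cdk6, Ccne1, Ccne2 and Cdkn1a, and neither in 6. The joint share over all listed elements is not given here, so this count alone does not set these loci apart. In 500 bp windows centred on all listed elements, AP-1 was found in 37% of positive and 7.09% of negative ones, and ISRE in 20% and 2.07%. The members were searched over their whole length, a median of 475 bp for positive and 1037.5 bp for negative ones. The window shares are thus not at the members' own widths. NFAT (TGGAAA), whose factors enter the nucleus on calcium signals from the T-cell receptor, was found in 5 positive elements and 1 negative one, against 44% and 14.5% of the windows.

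SP/KLF (GGGCGG), a GC-box common at CpG-island promoters, was found in all 6 negative elements with 33 matches and in 3 positive ones with 5. The windows held it in 85.8% of negative and 19.5% of positive elements, so the same direction was seen over the whole list. E2F (TTTNNCGC) was found in 1 positive and 2 negative elements (5.56% and 10.4% of the windows), the E-box (CACGTG) in 2 and 2 (7.5% and 12%), and the p53 decamer in 4 and 2 (21.4% and 8.3%). In windows as wide as the elements that held E2F, the shares of the same sign were 8.69% for the positive one and 25% and 18.8% for the negative ones. For the E-box they were 4.91% and 10.9% for the positive ones and 25.9% and 15.9% for the negative ones. For the p53 decamer they were 24.6%, 17.9%, 24.1% and 11.3% for the positive ones and 24.1% and 13.9% for the negative ones. STAT (TTCNNNGAA) was found in 1 positive element, against 20.2% of positive and 5.74% of negative windows. FOXO (TGTTTAC) was found in 2 positive and 1 negative (7.85% and 2.38%). In windows as wide as those elements, the FOXO shares of the same sign were 8.58% and 9.56% for the positive ones and 10.5% for the negative one. All motifs were searched on both strands, several overlap one another, and a match is a description of the letters only.

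**Figure D4:**
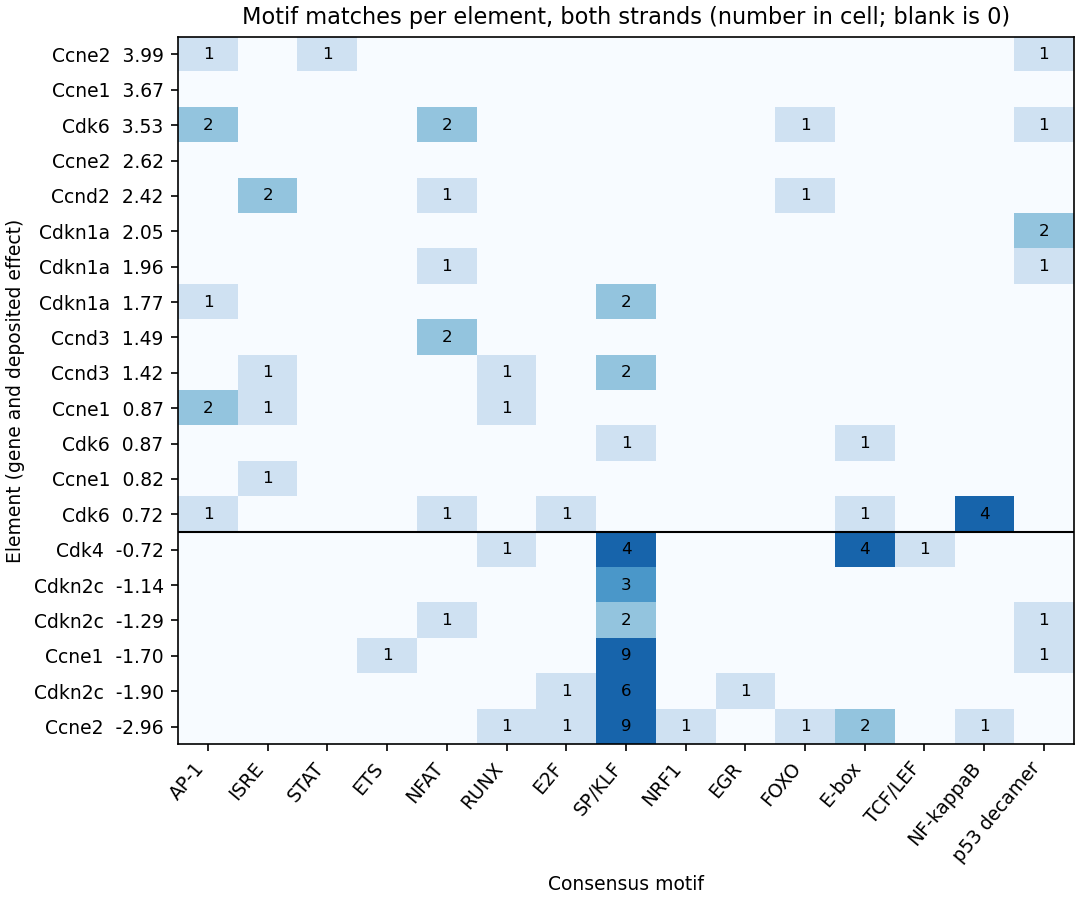
Number of matches (in the cells; blank is 0) of each consensus motif (columns) in each of the 20 elements (rows, ordered by deposited effect from 3.99 to -2.96); the black line parts positive from negative elements. AP-1 and ISRE matches lie above the line, every row below it has SP/KLF matches, and the rows at 3.67 and 2.62 have no match.

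The RefSeq promoter table (GRCm38, 250 bp before to 50 bp after a gene's start) held 7 of the 10 genes, and not Ccnd1, Ccnd2 or Ccne2. Its windows at Cdk4, Ccne1, Cdkn1a (1 of 2) and Cdkn2c (both) overlapped the listed promoter elements above. Those at Ccnd3, Cdk6 and Cdkn1b overlapped none, nor did the second Cdkn1a window. Those windows without a listed element had GC contents of 59.3% and 67% (Ccnd3), 66.7% (Cdk6), 64.7% (Cdkn1a) and 62% (Cdkn1b). The overlapping windows had 67% (Cdk4), 76% (Ccne1), 54.7% (Cdkn1a), and 44% and 73.3% (Cdkn2c). The negative elements themselves, which differ from the windows in width, ran from 62.8% to 75.2%. For scale, the median over 32851 promoter windows was 52.7%. High GC content at a start site was therefore found with and without a listed element among these genes. The lowest GC contents, 54.7% and 44%, were those of windows with one.

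The other genes of the G1 to S transition, 31 in all, were read from a list of E2F factors, retinoblastoma family members, further cyclins, kinases, inhibitors and their regulators. An element was found at 15 of them: 5 had a positive one, 12 a negative one, and Rbl1 and Mdm2 had both. The shares over all genes, given above, were 31.2% for any element, 16.0% for a positive, 19.8% for a negative and 4.50% for both. Their 23 elements comprised 7 positive ones with a median effect of 1.17 and 16 negative ones with a median of -1.56, all 16 at promoters, where 84.8% of all listed negative elements lay. The medians over all listed elements were 1.36 and -1.44. The most negative lay at Cdkn1c (-3.12), which encodes the inhibitor p57, at Tfdp1 (-2.95), the partner of E2F factors, at E2f8 (-2.55) and at Rb1 (-2.42), the retinoblastoma gene itself.

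The most positive lay at Ccnh (4.33), the cyclin of the CDK-activating kinase, at Rbl1 (4.14), which encodes the pocket protein p107, and at Rbl2 (1.98), which encodes p130. The Ccnh element lay 62270 bp upstream of Ccnh, within 1000 bp of the TSS of another gene, and had 2 near-copies in the genome at up to 97.3% identity, and repeats masked in the genome made up 78.4% of the Rbl1 one, which lay 17588 bp upstream. The 10 members held 14 positive elements of 20 and these 31 genes 7 of 23, which was not tested because both lists were chosen.

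**Figure D5:**
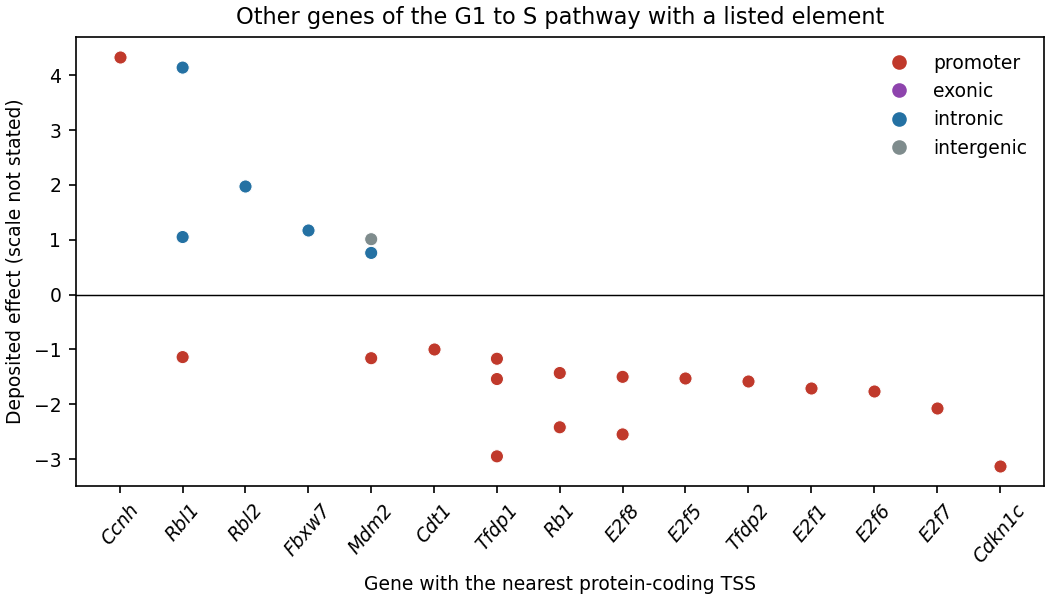
Deposited effect (vertical axis, scale not stated) of the 23 listed elements nearest to 15 other genes of the G1 to S transition (horizontal axis); each point is 1 element and the colour gives its class. All points below 0 are promoter elements, the class being set by a TSS of any gene, and the highest are those at Ccnh (4.33) and Rbl1 (4.14).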

How the data were processed

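Both STARR-seq replicates were represented by 1 deposited element list. The authors derived its effect, used here as a score, from both replicates' mm10 alignments, per the deposited description files. Neither the scale of that score nor its normalization is given in the sources used here. Its p-value and adjusted p-value per element are the authors', in the authors' deposited table, and were copied unchanged. The aligner, caller, input library and depth are not given in the sources used here. Per the labels, library sizes ranged from 200 to 400, which is not a depth and whose unit is not stated here. Widths ran from 50 to 2125 bp, starts lay on a 25 bp grid, and 10 elements on unplaced scaffolds were not annotated. Because there was 1 group and no value per replicate, no test was run, and the labels' replicates give no p-value here.

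Elements were assigned by midpoint to GENCODE M21 basic protein-coding TSSs. Sequence came from GRCm38.p6, which is C57BL/6J, read with pysam 0.24.0 and samtools 1.23.1 under Python 3.11.15, pandas 2.3.3 and NumPy 2.4.6. Near-copies were searched with BLAST 2.17.0 over member and pathway elements. The 17 motifs were matched as letters; NF-kappaB, CTCF and p53 decamers by their known consensus. Of these steps, the assignment to the nearest TSS and the matching of single motifs were tested on simulated data. The named genes are all 10 members, together with the pathway genes of the highest and lowest effect. Members and lists were chosen with earlier results of these data known. Figures were drawn with matplotlib 3.10.9.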

Additional observations from a re-analysis of the deposited data

How the results depend on the processing

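The choice of elements was varied in distance limit, TSS set, distance measure, adjusted p-value, width, near-copies and promoter window. Of 50 recomputed counts of elements and genes and median effects, 48 met the limit set for them. Counts had to stay within 1.5 times the reported one, and medians within a rank-based interval of the reported effects. Medians were taken within each sign, so none could change sign. For the 6 negative elements the interval was their full range, so the median of any subset met it. The limits on medians are therefore no evidence of stability. Over those settings the median effect ran from 1.49 to 2.05 for positive elements and from -1.90 to -1.49 for negative ones. With the TSSs of all gene types, the positive elements fell from 14 to 9, because the elements at 2.42 (Ccnd2), 3.53 (Cdk6), 0.87 (Ccne1), 1.96 and 1.77 (both Cdkn1a) were nearer to other genes' TSSs. With an adjusted p-value of at most 0.001 in the authors' deposited table, the negative elements fell from 6 to 3. The number of elements ran from 14 to 25. In the central 200 bp of each element, matches to NFAT were found in 3 elements in place of 6, to the p53 decamer in 2 in place of 6, to the E-box in 2 in place of 4 and to RUNX in 1 in place of 4. The pair of p53 decamers, a search added after the data were seen, was found in 2 elements. No paired analysis was possible because the list holds no column per replicate, and leaving out a replicate was not possible for the same reason. The unknown depth limits the precision of every effect.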
